A study of Rattus norvegicus with 9 samples.

Results

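Macrophages and other leukocytes live in adipose tissue beside the stromal cells, and some of them attach to plastic when the tissue is digested and plated. The 10 genes described here, Ptprc, Tyrobp, Aif1, Csf1r, Lyz2, Cd68, Adgre1, Mrc1, Cd163, and Cd14, are used to recognise such cells, and their levels bear on how much leukocyte RNA remained in culture. They were chosen by name from the 35362 genes of the count table. Of these, 9 were found by their symbol, and Adgre1 was found by its gene ID under the older symbol Emr1. All 10 had enough counts to be tested, among 14770 genes tested. RNA was sequenced from adipose-derived mesenchymal stem cells (ASCs) of male Sprague Dawley rats aged 6 weeks at passage 3. The cells came from groin subcutaneous fat (SASCs), perirenal fat (PASCs), or epididymal fat (EASCs), with 3 samples in each group, the rats had been starved before the fat was taken, and no treatment or engineered allele is given for any group. The study's methods describe digestion with collagenase, filtration, and selection by adherence to the plate, and they describe no sorting step against leukocytes. The methods describe replicates as wells of a culture plate, 6 in each group, and the table holds 3. It was not stated which wells, or whether different rats, these 3 represent, so the p-values below measure the spread between these samples, which may be technical.

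Macrophages depend on signals through the colony stimulating factor receptor and carry a set of surface molecules that take up debris, hemoglobin complexes, and microbial products. Tissue macrophages differ among themselves in the scavenger receptors that they carry. Ptprc encodes the leukocyte common antigen, carried by leukocytes of nearly all kinds, and Tyrobp encodes an adaptor that passes on the signals of activating receptors in myeloid cells. Aif1 is a calcium-binding protein of macrophages, and Csf1r is the receptor for Csf1 and Il34. Lyz2 and Cd68 encode a secreted lysozyme and a lysosomal membrane protein. Adgre1 is an adhesion receptor that marks mature macrophages in rodents. Mrc1 is the mannose receptor, Cd163 takes up hemoglobin bound to haptoglobin, and Cd14 is the coreceptor that hands lipopolysaccharide to Tlr4.

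The total counts of the 9 samples ranged from 17591916 to 30299032, and 3 counts corresponded to 0.104 to 0.159 counts per 1000000 counts (CPM) after scaling by the TMM method. Ribosomal RNA genes took 10.4% to 15.5% of the counts in SASCs, between 22.4% and 32.9% in PASCs, and between 15.9% and 40.3% in EASCs. Without TMM the median log2 fold change of all genes was -0.39 in EASCs vs. SASCs and -0.33 in PASCs vs. SASCs, and TMM set it to 0.01 and -0.01, so the fold changes below are relative to the bulk of genes. The mesenchymal label was checked against 12 stromal markers. Col1a1 and Vim were abundant in all groups, and Thy1, a surface marker of mesenchymal stem cells, had means of 545, 777, and 405 CPM in SASCs, PASCs, and EASCs. In contrast, Dcn, a matrix proteoglycan, was 31.6-fold lower in PASCs and 22.9-fold lower in EASCs than in SASCs, and Lum was 34.8-fold and 43.6-fold lower. Pdgfra was 5.55-fold lower in PASCs and 6.58-fold lower in EASCs than in SASCs. A differentially expressed gene (DEG) changed more than 2-fold with an adjusted p under 0.05 in edgeR's quasi-likelihood test. Of the 12 stromal markers, 1 was upregulated and 3 downregulated in EASCs vs. SASCs (13.6% and 14.2% of all genes). In PASCs vs. SASCs, 0 were upregulated and 3 downregulated (12.0% and 14.9% of all genes). Fold changes are given on the log2 scale with the standard error (SE).

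Promoter sequences of the genes are shown for Ptprc, for Lyz2 as the member with the largest increase over SASCs in both visceral groups, and for Mrc1 and Cd163, which were lower in PASCs than in SASCs. They are the 250 bases upstream of the transcription start in RefSeq's rat assembly GRCr8, 5′ to 3′ on the strand of the gene. The capitals mark GAGGAA or its reverse complement TTCCTC, the core of the site bound by the myeloid transcription factor encoded by Spi1.
Ptprc, chr13:52259747-52259996, minus strand: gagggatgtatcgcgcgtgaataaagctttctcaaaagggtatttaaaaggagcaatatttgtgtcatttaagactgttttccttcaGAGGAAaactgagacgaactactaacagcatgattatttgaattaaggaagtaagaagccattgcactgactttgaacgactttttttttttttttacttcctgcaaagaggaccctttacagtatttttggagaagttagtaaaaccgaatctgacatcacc
Lyz2, chr7:54798012-54798261, minus strand: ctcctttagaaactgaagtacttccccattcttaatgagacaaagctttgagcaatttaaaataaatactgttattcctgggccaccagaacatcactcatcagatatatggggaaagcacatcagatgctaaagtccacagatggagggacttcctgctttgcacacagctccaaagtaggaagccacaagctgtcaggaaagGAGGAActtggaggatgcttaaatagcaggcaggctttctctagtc
Mrc1, chr17:82157475-82157724, plus strand: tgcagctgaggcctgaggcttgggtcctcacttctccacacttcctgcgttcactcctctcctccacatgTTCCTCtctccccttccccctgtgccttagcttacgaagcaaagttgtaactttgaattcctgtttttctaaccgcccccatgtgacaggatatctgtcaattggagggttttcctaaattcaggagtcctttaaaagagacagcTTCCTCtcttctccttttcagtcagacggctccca
Cd163, chr4:158770524-158770773, plus strand: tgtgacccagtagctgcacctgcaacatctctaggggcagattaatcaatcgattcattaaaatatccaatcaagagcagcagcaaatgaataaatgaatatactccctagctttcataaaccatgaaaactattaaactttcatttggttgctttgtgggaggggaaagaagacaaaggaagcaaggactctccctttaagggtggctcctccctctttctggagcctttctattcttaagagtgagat
The RefSeq table held promoters of 8 of the 10 genes, without Aif1 and Tyrobp. The motif was searched on both strands, and 7 of the 8 windows held it, with Cd163 as the exception. Among all 33469 promoters of the same length, 7812 (23.3%) held it. The motif began 163 bases upstream of the start in Ptprc, 46 bases upstream in Lyz2, and 180 and 35 bases upstream in Mrc1. It lay 27 bases upstream in Cd68, 229 and 95 bases in Csf1r, 207 bases in Adgre1, and 140 and 105 bases in Cd14. Such a match describes the letters of the window and does not show binding.

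In the deposited table, whose positions are those of rn6, Ptprc spanned chr13:55061561-55174150 on the minus strand. It had 22, 24, and 26 counts in the 3 SASCs samples, and 41, 37, and 36 in PASCs, whereas EASCs had 77, 70, and 70. The exact 95% Poisson interval of the lowest value was 13.8 to 33.3 counts, which covers counting error only. The leukocyte common antigen was thus present in every sample at 22 to 77 counts, and the 3 groups did not overlap in CPM. Its mean was 1.02 ± 0.252 CPM in SASCs, 1.62 ± 0.265 in PASCs, and 3.06 ± 0.202 in EASCs (SD, n = 3). Per kilobase of gene length, its level in SASCs exceeded that of 7.54% of the genes tested, and its level in EASCs that of 18.5%. Ptprc was upregulated in EASCs vs. SASCs by 1.61 ± 0.270 on the log2 scale (SE), a 3.05-fold change (adjusted p = 7.95e-06). The increase in PASCs vs. SASCs was 0.68 ± 0.288 (adjusted p = 0.0394) and did not reach the fold change of a DEG, nor did EASCs vs. PASCs at 0.93 ± 0.255 (adjusted p = 0.00587). The former missed the adjusted p threshold with DESeq2 (0.0792), in a fit of the groups compared alone (0.0692), without SASCs replicate 1 (0.18) or 2 (0.0708), without PASCs replicate 1 (0.0648) or 3 (0.122), and without TMM, where it was 0.35 (adjusted p = 0.386). The latter missed it without TMM (0.85, adjusted p = 0.0511). Fewer cells of a type and less RNA per cell cannot be told apart in bulk samples, and since no library of leukocytes alone was analysed here, the levels were not turned into a share of cells.

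**Figure D1:**
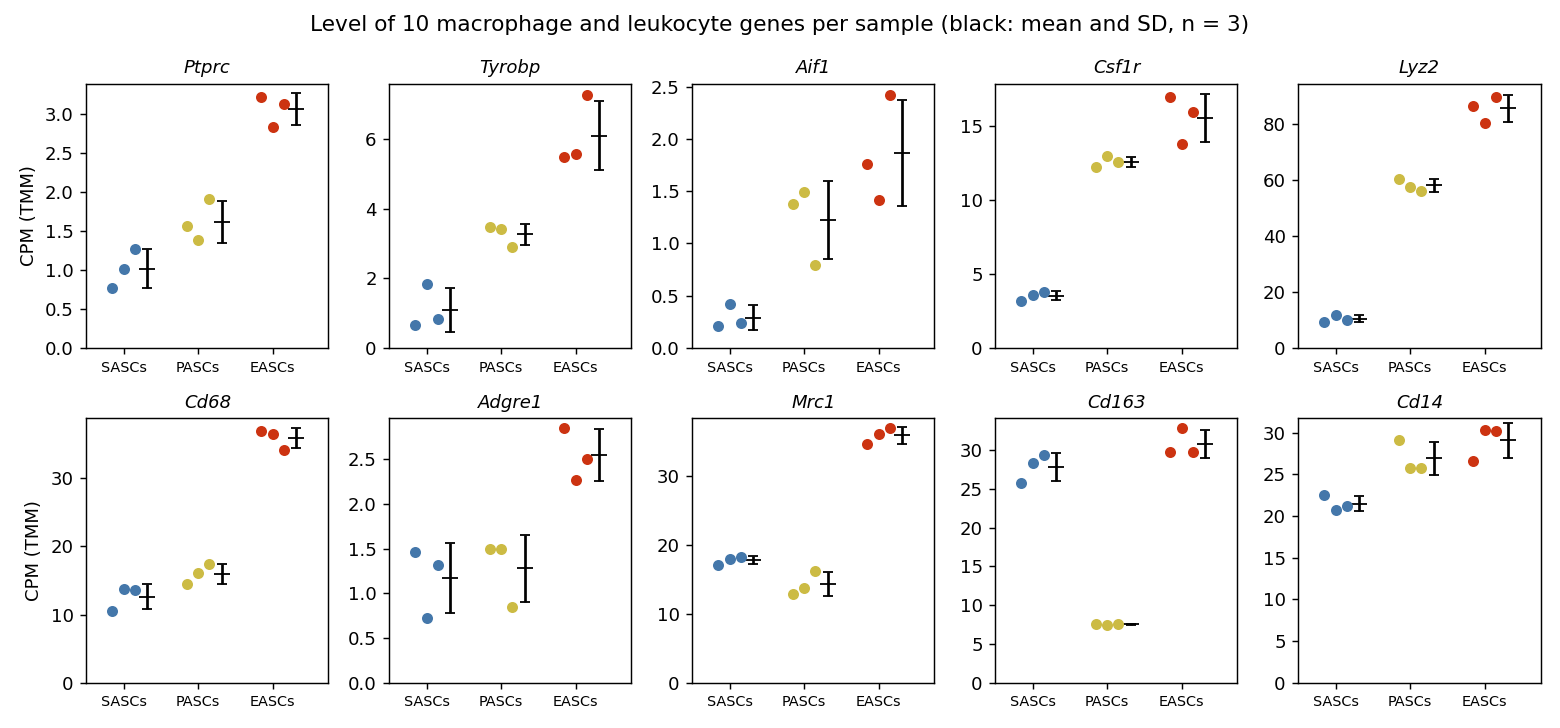
Level of each of the 10 genes in CPM after TMM, by group and sample, on linear axes that start at 0 and differ between panels. Points are samples and black bars are the mean and SD of 3 samples. Ptprc, Tyrobp, Csf1r, Lyz2, and Cd68 rise from SASCs to EASCs with no overlap, while Cd163 is near 7.52 CPM in PASCs against 27.8 and 30.8 CPM in SASCs and EASCs.

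Tyrobp (chr1:88875377-88879305) had 19, 43, and 17 counts in SASCs, and 91, 91, and 55 in PASCs, whereas EASCs had 131, 137, and 162. Its CPM did not overlap between any groups, although the second SASCs sample, at 1.83 CPM, lay above the other two at 0.661 and 0.83. Tyrobp was upregulated in EASCs (log2 fold change 2.47 ± 0.259, adjusted p = 2.75e-09) and in PASCs (1.58 ± 0.273, adjusted p = 1.15e-05) compared with SASCs. EASCs exceeded PASCs by 0.89 ± 0.223 (adjusted p = 0.00280), which was under the fold change of a DEG. Aif1 (chr20:5161350-5167180) was the member with the fewest reads in SASCs, at 6, 10, and 5 counts. It had 36, 40, and 15 counts in PASCs, whereas EASCs had 42, 35, and 54. The SASCs samples were below all others, while PASCs and EASCs overlapped. It was upregulated by 2.66 ± 0.423 in EASCs (adjusted p = 3.52e-06) and by 2.08 ± 0.438 in PASCs (adjusted p = 1.48e-04) vs. SASCs. The difference of 0.58 ± 0.345 in EASCs vs. PASCs did not pass the test (adjusted p = 0.225).

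Csf1r (chr18:56414493-56458300), the receptor on which macrophage survival depends, had 92, 85, and 78 counts in SASCs. It had 320, 346, and 237 counts in PASCs, whereas EASCs had 404, 339, and 356, and the groups did not overlap in CPM. Csf1r was upregulated 4.41-fold in EASCs (2.14 ± 0.127, adjusted p = 1.78e-14) and 3.57-fold in PASCs (1.84 ± 0.128, adjusted p = 7.23e-13) compared with SASCs. EASCs exceeded PASCs by 0.30 ± 0.109 (adjusted p = 0.0355), which missed the threshold without TMM (0.22, adjusted p = 0.528), with DESeq2 (adjusted p = 0.0863), and when each of 5 PASCs or EASCs samples was left out (adjusted p = 0.0654 to 0.167).

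Lyz2 (chr7:60335968-60341264, minus strand) had the largest fold changes of the 10 genes vs. SASCs. It had 272, 279, and 204 counts in SASCs, and 1583, 1541, and 1061 in PASCs, whereas EASCs had 2066, 1982, and 2008. Every sample of both visceral groups was several times above every SASCs sample. The mean was 10.4 ± 1.26 CPM in SASCs, 58.1 ± 2.23 in PASCs, and 85.6 ± 4.81 in EASCs (SD, n = 3). Lyz2 was upregulated in EASCs by 3.04 ± 0.0805 (8.23-fold, adjusted p = 2.37e-22) and in PASCs by 2.48 ± 0.0812 (5.59-fold, adjusted p = 3.04e-20) vs. SASCs. EASCs exceeded PASCs by 0.56 ± 0.0680 (1.47-fold, adjusted p = 2.24e-07). Per kilobase, it stood above 64.7% of the genes tested in SASCs and above 94.9% in EASCs. The paralog Lyc2 had 0 to 4 counts per sample. The last 89 bases of the RefSeq windows of both genes, 39 of them upstream of the start, were identical. The rest of the transcripts was not compared, and whether reads of Lyc2 and Lyz2 could be assigned to either gene was not tested.

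Cd68 (chr10:56268726-56270605, minus strand) had 302, 324, and 278 counts in SASCs, and 377, 431, and 328 in PASCs, whereas EASCs had 882, 900, and 762. This lysosomal protein is also made at a low level by cells other than macrophages. EASCs stood apart from both other groups, with a log2 fold change of 1.52 ± 0.0993 vs. SASCs (adjusted p = 1.74e-13) and 1.17 ± 0.0971 vs. PASCs (adjusted p = 1.55e-10), a DEG in both comparisons. PASCs exceeded SASCs by 0.34 ± 0.104 (adjusted p = 0.00493). Without the first SASCs sample that difference was 0.22 (adjusted p = 0.068), and without TMM it was 0.02 (adjusted p = 0.945). Adgre1 (chr9:9431888-9585875, minus strand) was near the level of Ptprc, with 42, 17, and 27 counts in SASCs, and 39, 40, and 16 in PASCs, whereas EASCs had 68, 56, and 56. The SASCs and PASCs samples overlapped, and all EASCs samples were above them. Adgre1 was upregulated in EASCs vs. SASCs by 1.11 ± 0.298 (adjusted p = 0.00179), but without the second SASCs sample the value was 0.86 (adjusted p = 0.0181), below the fold change of a DEG, and without TMM it was 0.71 (adjusted p = 0.0559). PASCs vs. SASCs was 0.15 ± 0.319 (adjusted p = 0.687), and EASCs vs. PASCs was 0.96 ± 0.294 (adjusted p = 0.0135).

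The receptors Mrc1 and Cd163, which mark scavenging macrophages resident in tissue, followed another order. Mrc1 (chr17:81352700-81433743) had 492, 422, and 373 counts in SASCs, and 336, 367, and 307 in PASCs, whereas EASCs had 824, 888, and 826. PASCs had the lowest levels and EASCs the highest, without overlap. Mrc1 was upregulated in EASCs vs. PASCs (1.34 ± 0.0890, adjusted p = 1.82e-12), and PASCs were 1.25-fold below SASCs (log2 fold change -0.32 ± 0.0928, adjusted p = 0.00342). In EASCs vs. SASCs the log2 fold change of 1.01 ± 0.0869 (adjusted p = 5.03e-11) was at the limit of a DEG. It was 0.99 without the first SASCs sample and 1.00 without the third EASCs sample, both just under a 2-fold change, and 0.62 without TMM (adjusted p = 8.46e-04).

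Cd163 (chr4:156752064-156785467) had 741, 668, and 601 counts in SASCs, and 197, 198, and 144 in PASCs, whereas EASCs had 710, 809, and 666. Its mean was 27.8 ± 1.85 CPM in SASCs, 7.52 ± 0.113 in PASCs, and 30.8 ± 1.75 in EASCs (SD, n = 3). PASCs samples were thus the low ones, and SASCs and EASCs were close to each other. Cd163 was downregulated in PASCs vs. SASCs (log2 fold change -1.88 ± 0.0932, 3.69-fold lower, adjusted p = 3.55e-16) and upregulated in EASCs vs. PASCs (2.03 ± 0.0928, adjusted p = 5.80e-16). EASCs vs. SASCs was 0.15 ± 0.0813 (adjusted p = 0.106), and this direction turned without TMM (-0.24, adjusted p = 0.213). Cd14 (chr18:29560341-29562294, minus strand) had the narrowest range of group means relative to its level, with 647, 489, and 435 counts in SASCs, and 762, 690, and 487 in PASCs, whereas EASCs had 636, 748, and 676. It exceeded SASCs by 0.43 ± 0.0828 in EASCs (adjusted p = 4.54e-05) and by 0.32 ± 0.0832 in PASCs (adjusted p = 0.00119), neither of them a DEG. Without TMM these values were 0.04 (adjusted p = 0.849) and 0.00 (adjusted p = 0.999). EASCs and PASCs overlapped, with a difference of 0.11 ± 0.0815 (adjusted p = 0.345).

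**Figure D2:**
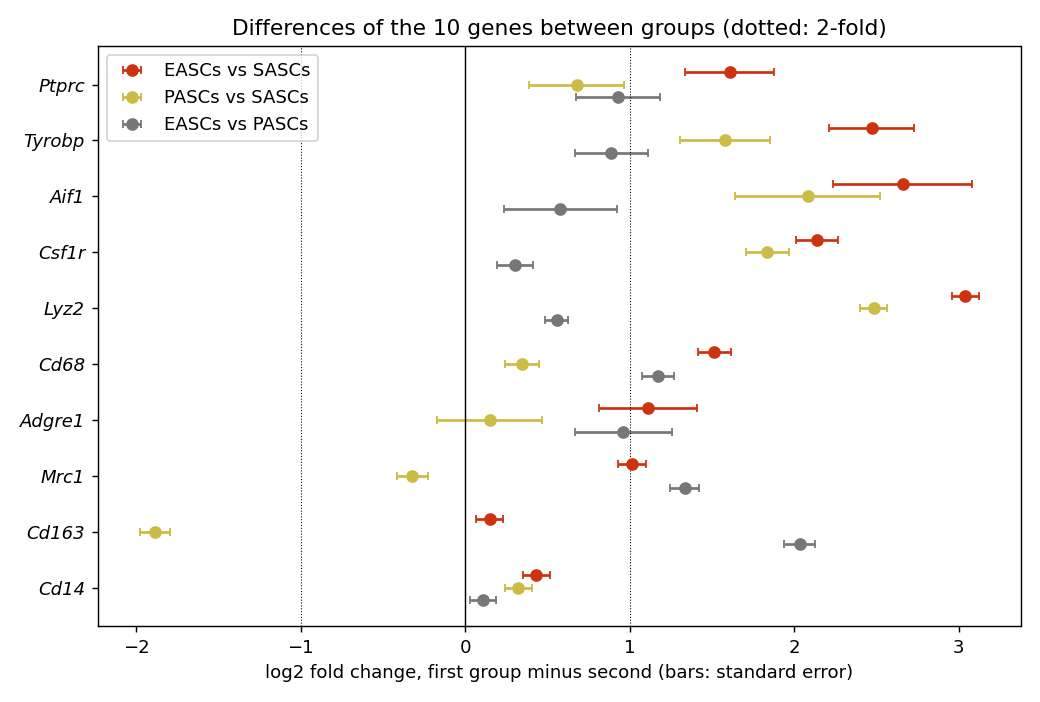
Log2 fold change of each gene in the 3 comparisons, first group minus second, with bars of 1 SE and dotted lines at a 2-fold change. Lyz2 has the largest value at 3.04 in EASCs vs. SASCs, and Cd163 is the gene whose PASCs vs. SASCs value lies beyond the lower line, at -1.88.

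Counted together, 8 of the 10 genes were upregulated in EASCs vs. SASCs and 0 were downregulated, where 13.6% of all genes tested were upregulated and 14.2% downregulated. In PASCs vs. SASCs, Csf1r, Aif1, Tyrobp, and Lyz2 were upregulated (4 of 10, against 12.0% of all genes) and Cd163 was downregulated (1 of 10, against 14.9%). In EASCs vs. PASCs, Cd68, Mrc1, and Cd163 were upregulated (3 of 10, against 5.19% of all genes) and 0 were downregulated (against 2.20%). By adjusted p alone, at any fold change and in either direction, 9 of the 10 genes passed in PASCs vs. SASCs, against 69.2% of all genes, and 8 passed in EASCs vs. PASCs, against 30.7%. The median log2 fold change of the 10 genes was 1.56, 0.51, and 0.91 in the 3 comparisons, and that of all genes was 0.01, -0.01, and -0.01. The comparisons with SASCs share the SASCs samples and are not independent of each other. Summed over the 10 genes, the level was 91.6 to 100.2 CPM in SASCs, between 141.3 and 144.7 in PASCs, and between 241.7 and 252.1 in EASCs.

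Several of the 10 genes did not keep a fixed proportion to each other. Per kilobase of gene length, the median ratio of Lyz2 to Ptprc was 51.5 in SASCs (34.7 to 54.7), 171 in PASCs (130.5 to 184.4), and 125 in EASCs (118.8 to 127.0). The ratio of Cd163 to Ptprc took the opposite order, with 33.7 in SASCs, 5.81 in PASCs, and 11.5 in EASCs. That of Mrc1 to Ptprc was 17.7, 8.59, and 11.9. For Cd68 the ratios to Ptprc overlapped between all groups, with 47.0 to 60.3 in SASCs, between 40.0 and 51.2 in PASCs, and between 47.8 and 56.5 in EASCs. Those of Adgre1 overlapped as well, at 0.685 to 2.94 times the level of Ptprc over all samples. The ratio of Lyz2 to Cd163 was 1.34, 1.53, and 1.24 in the SASCs samples, 29.4, 28.5, and 27.0 in PASCs, and 10.7, 8.97, and 11.0 in EASCs. The ratios of Lyz2 to Cd163 did not overlap between groups. They describe unequal change and do not show which of the genes moved.

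Other macrophage genes were examined as a list of 37, of which 36 were in the table and 31 were tested. In EASCs vs. SASCs, 25 of the 31 were upregulated and 1 was downregulated, with a median log2 fold change of 2.17, where 13.6% and 14.2% of all genes were called. In PASCs vs. SASCs, 18 were upregulated and 4 downregulated (median 1.12), against 12.0% and 14.9% of all genes. In EASCs vs. PASCs, 18 were upregulated and 0 downregulated (median 1.09), against 5.19% and 2.20%. Among those with the highest mean CPM were Mpeg1, a pore-forming protein of phagocytes, Msr1, a scavenger receptor, and the complement gene C1qa. Mpeg1 had a mean of 3.91 CPM in SASCs, 10.9 in PASCs, and 26.3 in EASCs, and C1qa had 3.82, 6.65, and 20.6. Msr1 had means of 4.55, 11.6, and 19.4 CPM. Siglec1, a sialic acid receptor of resident macrophages, was upregulated 11.9-fold in EASCs (3.58, adjusted p = 2.12e-10) and 5.53-fold in PASCs (2.47, adjusted p = 7.59e-07) vs. SASCs. Clec7a, the receptor for fungal glucans, was upregulated 9.66-fold and 2.99-fold. Ms4a7 had 1, 0, and 1 counts in SASCs, 10, 4, and 4 in PASCs, and 23 in each EASCs sample.

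Among the members of this list that were downregulated in PASCs vs. SASCs were Lyve1, Clec10a, and Fcgr2b. Lyve1, a hyaluronan receptor of lymphatic vessels and of some resident macrophages, had 36, 20, and 13 counts in SASCs, and 2, 0, and 3 in PASCs, whereas EASCs had 18, 8, and 10. Clec10a was 2.74-fold lower in PASCs than in SASCs (adjusted p = 9.88e-10) and Fcgr2b was 2.25-fold lower (adjusted p = 2.78e-05), and neither was a DEG in EASCs vs. SASCs. Clec10a, Lyve1, Cd163, and Mrc1 thus had their lowest mean in PASCs. Without TMM, 11 genes of the list were upregulated and 5 downregulated in PASCs vs. SASCs, and 16 and 4 with DESeq2. Marco and Timd4 had 0 counts in all samples. For 0 counts, the upper 95% limit of counting error, taken without a lower limit, is about 3 counts per library.

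**Figure D3:**
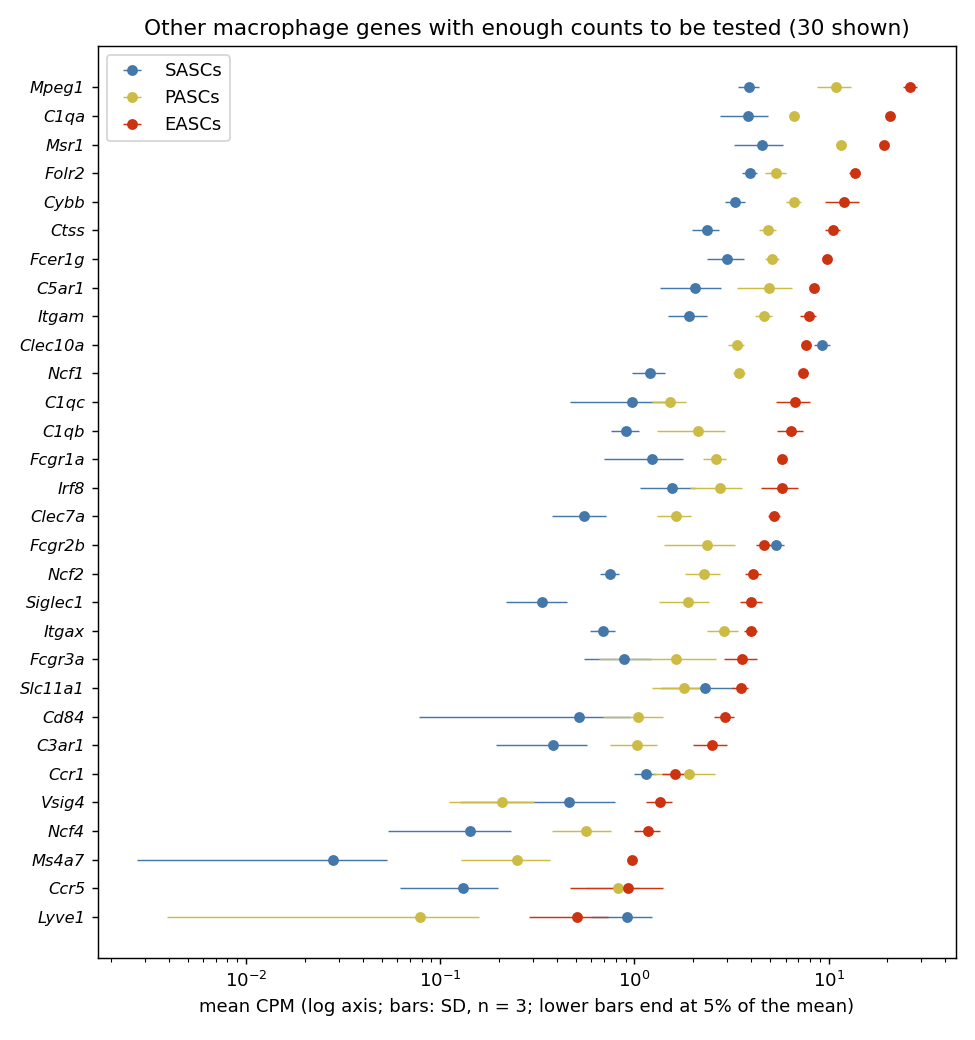
Mean CPM, on a log axis, of 30 of the 31 tested genes of the macrophage list in SASCs, PASCs, and EASCs, ordered by the EASCs mean. Bars are the SD of 3 samples, and lower bars that would pass below 0 end at 5% of the mean. Most genes run from SASCs to PASCs to EASCs in rising order, and Mpeg1 is the highest in EASCs, at 26.3 CPM.

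Of 20 genes shared by most leukocytes, 18 were tested. In EASCs vs. SASCs, 16 were upregulated and 1 downregulated (median log2 fold change 1.94), in PASCs vs. SASCs 9 and 1 (median 1.20), and in EASCs vs. PASCs 3 and 0 (median 0.73). The shares of all genes upregulated were 13.6%, 12.0%, and 5.19%, and the shares downregulated were 14.2%, 14.9%, and 2.20%. Itgb2, the common chain of the leukocyte integrins, had means of 4.88 CPM in SASCs, 14.6 in PASCs, and 24.9 in EASCs and was upregulated by 2.35 in EASCs (adjusted p = 3.40e-16) and by 1.58 in PASCs (adjusted p = 4.58e-12). Spi1, the gene of the transcription factor named above, had 1.96, 2.95, and 4.74 CPM and was upregulated in EASCs vs. SASCs (1.30, adjusted p = 3.01e-05). The genes Cd48 and Arhgdib did not follow the rest. Cd48 had 88.9 CPM in SASCs, 46.6 in PASCs, and 44.9 in EASCs, and Arhgdib had 34.8, 12.0, and 9.08 CPM and was downregulated in both visceral groups. Cd48 took the largest share of the summed level of the list, which was 145.7 to 152.6 CPM in SASCs, between 114.8 and 126.5 in PASCs, and between 154.9 and 161.6 in EASCs.

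Genes of lymphocytes were almost without reads. Of 18 genes of T, B, and NK cells, 11 had 0 counts in all 9 samples and 15 had at most 3 counts in every sample, among them Cd3e, Cd79b, and Ncr1. Their summed level was 0.342 to 0.626 CPM in SASCs, between 0.536 and 0.953 in PASCs, and between 0.608 and 1.21 in EASCs. Lck was the 1 gene of this list with enough counts to be tested, at 3 to 16 counts per sample, and it had no DEG call. Of 14 granulocyte and mast cell genes, 12 were too low to be tested, and 7 had at most 3 counts in every sample. Kit, the stem cell factor receptor, which is not limited to mast cells, had a mean of 8.81 CPM in SASCs, 1.70 in PASCs, and 3.45 in EASCs, and it was downregulated in both visceral groups. Of 5 dendritic cell genes, Zbtb46 was tested, at 8.36 to 11.0 CPM by group, and Xcr1 had 0 counts throughout. Of 5 erythroid genes, 0 had enough counts to be tested, and their summed level was at most 0.509 CPM in a sample.

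**Figure D4:**
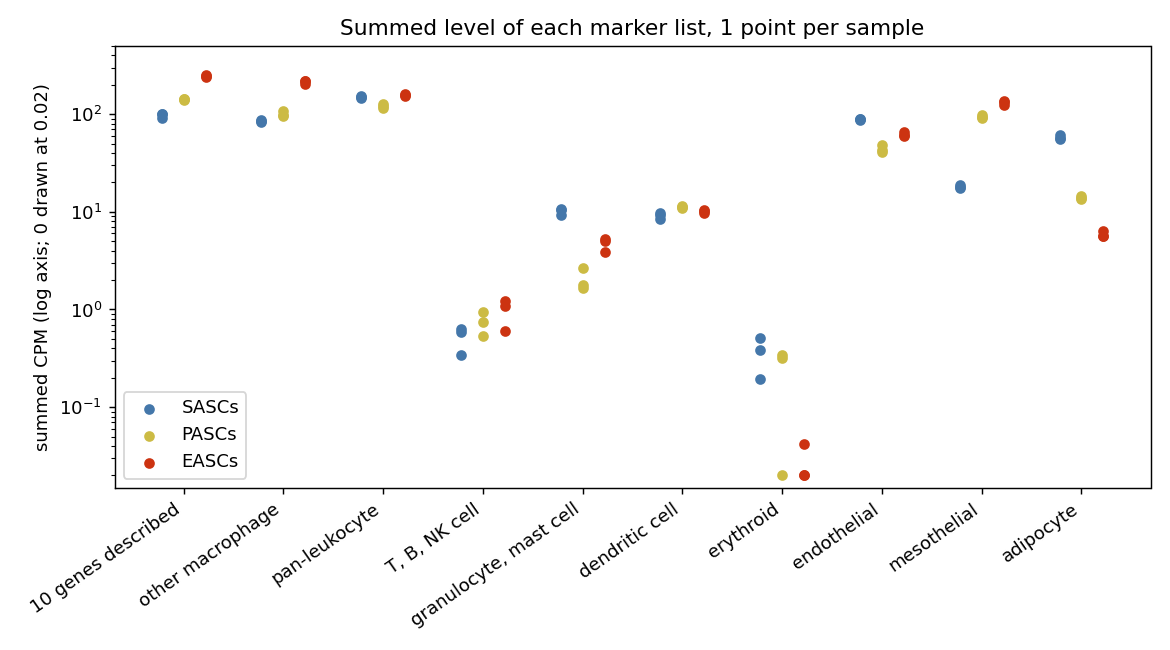
Summed CPM of each list of marker genes in each of the 9 samples, on a log axis, with samples at 0 drawn at 0.02. The lists of macrophage genes are highest in EASCs, the T, B, and NK cell list stays between 0.342 and 1.21 CPM, and the mesothelial and adipocyte lists move in opposite directions between SASCs and the visceral groups.

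Ligands and partners of the 10 genes were read from a list of 14. Csf1, the growth factor of macrophages, was abundant in all groups, with a mean of 1160 CPM in SASCs, 491 in PASCs, and 453 in EASCs. It was thus downregulated where its receptor Csf1r was upregulated, with log2 fold changes of -1.24 ± 0.0528 in PASCs (adjusted p = 1.21e-17) and -1.36 ± 0.0530 in EASCs (adjusted p = 1.62e-18). The other ligand, Il34, had 42.6, 26.5, and 30.5 CPM and was no DEG. Trem2, a lipid receptor that signals through Tyrobp, and Syk, the kinase after it, were upregulated in both visceral groups, by 2.60 and 2.57 in EASCs (adjusted p = 1.74e-13 and 1.84e-10) and by 1.72 and 1.45 in PASCs (adjusted p = 2.43e-09 and 1.16e-05). Around Cd14, Tlr4 was 5.31-fold lower in PASCs and 4.78-fold lower in EASCs than in SASCs. Lbp, which loads lipopolysaccharide onto Cd14, had 51.3 CPM in SASCs, 12.4 in PASCs, and 79.3 in EASCs. Around Cd163, Hp (haptoglobin) and Hmox1, the enzyme that breaks down heme, were downregulated in PASCs (-2.93 and -2.32) and in EASCs (-1.50 and -1.91) vs. SASCs. Sirpa, the receptor for Cd47, was downregulated in both groups (-1.65 in PASCs and -1.75 in EASCs), and Cd47 was no DEG. In total, 2 of the 14 genes were upregulated and 5 downregulated in EASCs vs. SASCs, 2 and 6 in PASCs vs. SASCs, and 3 and 0 in EASCs vs. PASCs. Of all genes, 13.6%, 12.0%, and 5.19% were upregulated and 14.2%, 14.9%, and 2.20% downregulated, so the number upregulated vs. SASCs was near the share of all genes.

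Markers of other cells moved between the same groups. Of 10 tested endothelial genes, 8 were downregulated and 1 upregulated in PASCs vs. SASCs (14.9% and 12.0% of all genes), and 6 were upregulated and 0 downregulated in EASCs vs. PASCs (5.19% and 2.20% of all genes). In EASCs vs. SASCs, 1 was upregulated and 1 downregulated (13.6% and 14.2% of all genes), or 1 and 5 without TMM. Cdh5, the cadherin of endothelial cells, had means of 9.20, 1.13, and 9.77 CPM in SASCs, PASCs, and EASCs, and Pecam1 had 10.6, 1.11, and 6.47. Tek, the angiopoietin receptor, went the other way, with 2.55, 8.30, and 8.08 CPM, and was upregulated 3.27-fold in PASCs (adjusted p = 1.28e-10) and 3.17-fold in EASCs (adjusted p = 2.31e-10) vs. SASCs. Egfl7, the gene of the list with the highest mean CPM, had 30.1, 27.7, and 20.8 CPM and was no DEG in these comparisons. The summed endothelial level was 86.7 to 90.3 CPM in SASCs, between 41.2 and 48.4 in PASCs, and between 59.1 and 65.8 in EASCs. All 4 tested mesothelial genes were upregulated in both visceral groups vs. SASCs, and their list summed to 17.4 to 19.0, 90.9 to 97.9, and 123.5 to 135.4 CPM. Wt1 alone had 1.91, 36.0, and 53.7 CPM, while Krt19, a keratin of mesothelium, had 0 to 8 counts per sample and was not tested. The adipocyte list of 5 genes summed to 55.3 to 60.7, 13.6 to 14.4, and 5.64 to 6.36 CPM, and the 3 tested genes were downregulated in both groups. The part of these cell types in the levels of the 10 genes was not tested.

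For each gene the 3 tested genes with the most similar levels over the 9 samples were found by Pearson's r of log2 CPM. The samples form 3 groups, so r mainly reflects the order of the group means, and the values are a description. Ptprc was most like Tnfaip8l2 (r = 0.987), a regulator of immune cells, followed by Gna15 and Polr1a. Adgre1 was most like the C-type lectin gene Clec4a1 (r = 0.974), followed by Bsdc1 and Gcgr. Cd68 was most like Wscd2 (r = 0.995), followed by Tfec and Mcc. Cd163 was most like Gja5 (r = 0.997), a gap junction protein of vessels, followed by the chemokine gene Ccl2 (r = 0.995) and Timp3. The genes most like Lyz2 were Lmod1 (r = 0.999), Tagln, and Actn1, genes of smooth muscle and the actin cytoskeleton, which are no leukocyte markers. Csf1r was most like Lxn (r = 0.998), Vdac1, and Cotl1, and Mrc1 was most like Flrt2 (r = 0.995), Serinc3, and Cdh2. For Tyrobp these genes were Elovl4 (r = 0.989), Ankrd1, and RGD1560281, and for Cd14 they were Srrd (r = 0.988), LOC103693629, and Nol9. For Aif1 they were Hist1h4a (r = 0.987), Stx18, and Ppp1r11.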

How the data were processed

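RNA of SASCs, PASCs, and EASCs was sequenced at passage 3 as paired-end reads of 150 bp, with 3 samples in each group by their labels. The authors trimmed the reads with cutadapt and FastX-Toolkit, aligned them with TopHat to the rat genome, and deposited raw counts for 35362 genes. The build list of the labels names rn5, while the study's methods and the table's positions are those of rn6. The counting tool, its use of strand, and its treatment of reads shared by genes were not given in the sources used here. The table holds no columns of the authors' own comparisons.

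Counts were scaled by TMM (factors 0.740 to 1.23) and filtered by filterByExpr in edgeR 4.0.16 (R 4.3.3). All 9 samples were fitted in a single model with 3 group means and no block, and quasi-likelihood tests were adjusted by the Benjamini-Hochberg method over 14770 genes. The thresholds of the study, a change of more than 2-fold and an adjusted p under 0.05, defined DEGs. The SE is the log2 fold change divided by the root of the F statistic. CPM are counts per 1000000 of the TMM-scaled library, and levels of different genes were compared per kilobase of the deposited length. In simulated counts for EASCs vs. SASCs, 194 of 200 genes changed 4-fold were recovered (97%) and 2 of the unchanged genes were called, among 14429 genes. The recovery at 4-fold does not apply to calls near the 2-fold limit. Depth limits precision, since 3 counts equal 0.104 to 0.159 CPM, and this covers counting error only. Samples of a group differed by more than counting noise, so none was taken as a copy of another. This does not measure their quality, and all samples were kept.

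The 10 genes and the lists were chosen with earlier results of these data known. The rule for naming genes took all 10 genes, up to 5 genes of each other list with the highest mean CPM and up to 5 with the largest change vs. SASCs among DEGs, and the 3 genes most similar to each of the 10 at a mean of at least 1 CPM. Not every gene that the rule took is printed. Further members of the lists were named after their values were seen. Ccr2, a member of the macrophage list, was not analysed here, and some genes of the lists are counted but not reported singly here. Alternatives were DESeq2 1.42.0, total counts without TMM, removal of 7 ribosomal RNA genes, other filters on low counts, only the groups compared, a replicate block, other thresholds, and leaving out each sample in turn.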

Additional observations from a re-analysis of the deposited data

How the results depend on the processing

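With adjusted p alone and no limit on the fold change, 9 of the 10 genes passed in PASCs vs. SASCs (5 as DEGs), where 69.2% of all genes passed in either direction, and 8 in EASCs vs. PASCs (3 as DEGs), where 30.7% did. The number of DEGs was 7 to 8 in EASCs vs. SASCs, 5 in PASCs vs. SASCs, and 3 to 4 in EASCs vs. PASCs when single samples were left out. In EASCs vs. PASCs, Adgre1 joined without the first or second PASCs or the second EASCs sample, and Ptprc without the third PASCs sample. In EASCs vs. SASCs, DESeq2 gave 7 DEGs, without Mrc1, total counts without TMM gave 6, without Mrc1 and Adgre1, and a direct test of the 2-fold change gave 6. Samples with the same replicate number did not deviate together from their group means, with correlations of -0.0348 to 0.0380. Such correlations do not show whether samples came from the same rat. A fit with the replicate block gave 8, 5, and 3 DEGs in the 3 comparisons. Directions turned for Cd163 in EASCs vs. SASCs (-0.24 without TMM) and for Adgre1 in PASCs vs. SASCs (-0.18 without TMM and -0.10 to 0.37 without single samples), where the adjusted p exceeded the threshold in each fit. Among the log2 fold changes of single genes under all alternatives, 454 kept their direction and their side of the adjusted p threshold. A further 23 passed that threshold in the main fit and missed it in the alternative, and 3 turned. The 2-fold limit of a DEG was not part of this count, so a lost DEG call can be among the 454. Of the group means rescaled by total counts or by the size factors of DESeq2, 16 moved by more than 1 SD, all of them by total counts, and 44 did not. Ptprc in PASCs vs. SASCs, no DEG in the main fit, was among the 23 (adjusted p = 0.0792 with DESeq2 and 0.0648 to 0.18 without single samples). Without TMM, 28.3% of all DEGs in EASCs vs. SASCs were upregulated against 48.8% with it, and 28.5% against 44.7% in PASCs vs. SASCs. The cause of these changes was not tested, apart from the shift of all genes without TMM. Depth limits Aif1, Ptprc, Tyrobp, and Adgre1, which had under 50 counts in each SASCs sample.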
